A study of Mus musculus with 20 samples.

Results

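The retinoid metabolism genes of the mouse liver are described here as a set of 9 genes, Rbp4, Adh1, Rdh16, Dhrs3, Aldh1a1, Cyp26a1, Rara, Rarb and Rxra, out of 21780 genes in the deposited table of raw read counts. They were chosen by name, and their rows were found by matching the Ensembl identifiers of the table to gene symbols in the GENCODE M21 annotation; all 9 were found and all 9 passed the filter on low counts. RNA-seq libraries were made from polyadenylated RNA of the livers of 20 adult male C57Bl/6J mice, 5 livers of the 10 mice in each of 4 exposure groups. Every mouse, the control mice included, was fed a high-fat diet (HFD, 42% of calories from fat) for 12 weeks from 8 weeks of age. At 10 weeks of age each mouse received 1 oral gavage of corn oil (HFD control), of the commercial polychlorinated biphenyl (PCB) mixture Aroclor 1260 at 20 mg/kg (Aroclor), of the dioxin-like congener PCB 126 at 20 µg/kg (PCB 126), or of both at these doses (Aroclor + PCB 126). No group on a low-fat diet is among these samples, so each comparison is between mice on the same diet.

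Total counts per library ranged from 21836506 to 36854887. Of the 8 hepatocyte markers examined none was at 0 in any library, and albumin (Alb) was at 52496 to 85323 CPM (counts scaled to library size), so the libraries carry the defining transcripts of liver. Cyp1a2, a target of the aryl hydrocarbon receptor through which dioxin-like PCBs act, was at 1590.2 ± 606 CPM (SD, n = 5 mice) with PCB 126 and 775 ± 186 CPM with Aroclor + PCB 126, against 387 ± 99.4 CPM in HFD control and 385 ± 76.2 CPM with Aroclor. Cyp1a1, another target of this receptor, ranged from 4.09 to 314 CPM with PCB 126, but only from 0.792 to 2.62 CPM with Aroclor + PCB 126, beside 0.219 to 0.94 CPM in HFD control and 0.737 to 1.23 CPM with Aroclor. Each mouse given both PCBs was thus below each PCB 126 mouse for Cyp1a1, and the group overlapped HFD control. A trend over the GC content of transcripts also ran through the libraries. Relative to the mean of all libraries, log2 CPM moved by 0.26 ± 0.19 (SD, n = 5) for each 10 percentage points of GC content in HFD control and by −0.39 ± 0.21 with Aroclor + PCB 126 (p = 0.00794, two-sided exact permutation test, the smallest p that 5 mice against 5 allow). Because of this, every test result is given as counted and, where the difference matters, after the smooth trend over GC content had been removed from each library (GC correction).

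Retinoids are vitamin A and its derivatives. The liver takes up dietary retinol, keeps most of it as retinyl ester in the hepatic stellate cells, and sends it to other tissues bound to a serum carrier protein. Inside cells retinol is oxidized to retinal and then to retinoic acid, which binds the retinoic acid receptors (RARs) paired with retinoid X receptors (RXRs) on DNA, and retinoic acid is removed by cytochrome P450 enzymes that its own receptors induce.

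The classical binding site of an RAR/RXR pair is a direct repeat of 2 short half-sites, and a repeat with a spacing of 5 bases is known as DR5. The half-sites searched were AGTTCA with the variant AGGTCA, and GGTTCA with the variant GGGTCA, on both strands of the RefSeq promoter windows (GRCm38.p6, 250 bases before to 50 after a start site), together with direct repeats of them at spacings of 1, 2 and 5 bases. Among the 9 genes, Cyp26a1 and Rarb held a DR5 repeat, and no gene held a repeat with the other spacings. A DR5 repeat was present in 32 of 32851 promoter windows (0.0974%), whereas a half-site alone was present in 43.7% of them. The 250 bases before the start sites of both genes are shown 5′ to 3′ on the strand of the gene because these are the promoters with the repeat; capitals mark half-sites of either orientation and the core GCGTG of the aryl hydrocarbon receptor response element (DRE) on either strand. The Cyp26a1 window is chr19:37697558-37697807 on the plus strand, and the Rarb window is chr14:16575477-16575726 on the minus strand.
Cyp26a1: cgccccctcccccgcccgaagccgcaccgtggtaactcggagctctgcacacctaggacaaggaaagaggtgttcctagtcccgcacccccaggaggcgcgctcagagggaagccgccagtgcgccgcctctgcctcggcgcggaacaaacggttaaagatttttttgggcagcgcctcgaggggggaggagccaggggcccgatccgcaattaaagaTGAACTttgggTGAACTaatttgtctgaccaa
Rarb: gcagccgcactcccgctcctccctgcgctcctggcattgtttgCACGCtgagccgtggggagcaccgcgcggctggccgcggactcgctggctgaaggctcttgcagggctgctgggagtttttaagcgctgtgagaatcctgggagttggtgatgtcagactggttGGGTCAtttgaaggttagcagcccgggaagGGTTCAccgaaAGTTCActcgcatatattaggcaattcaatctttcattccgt
In Cyp26a1 the repeat lies at chr19:37697776-37697792, starts 32 bases before the start site, and on the minus strand reads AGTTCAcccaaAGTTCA. In Rarb it lies at chr14:16575513-16575529, starts 53 bases before the start site, and on the strand of the gene reads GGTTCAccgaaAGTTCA. The core GCGTG, which 32.4% of all windows hold, was found in the Rarb window and not in that of Cyp26a1. These matches are letters of the reference sequence, and whether a receptor sat there was not measured.

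The 9 genes spanned more than 3 orders of magnitude in level. Per kilobase of exon, the mean over the 20 libraries was 2892 FPKM (CPM divided by the merged exon length in kilobases) for Rbp4, 986 for Adh1, 626 for Aldh1a1, 68.2 for Rxra, 45.2 for Dhrs3, 39.0 for Rdh16, 12.9 for Cyp26a1, 2.35 for Rara and 0.790 for Rarb. The secreted carrier Rbp4 and the oxidizing enzymes Adh1 and Aldh1a1 were thus the most abundant, whereas Rdh16, which also oxidizes retinol, was far below Adh1. Rxra was by far the most abundant of the 3 receptors. Over all libraries the FPKM of Rbp4 (2020 to 4166) did not overlap that of Adh1 (553 to 1249). The ranges of Adh1 and Aldh1a1 (286 to 829) overlapped between mice, as did those of Rxra (32.6 to 88.7), Dhrs3 (27.9 to 61.4) and Rdh16 (21.9 to 53.5). Cyp26a1 (4.56 to 24.9) reached the lowest Rdh16 values, and Rara (0.874 to 3.42) and Rarb (0.359 to 1.15) overlapped at their ends. Within each mouse, however, Rxra was above Dhrs3 and Rara above Rarb. Adh1 was above Aldh1a1 in each mouse except Aroclor + PCB 126 replicate 4 (783 against 803). The place of Rdh16 varied, since it was above Dhrs3 and Rxra in some Aroclor + PCB 126 mice, replicate 4 among them. Rarb had at least 44 counts in every library, and Rara at least 87, so counting error is a larger part of the spread for these receptors than for the enzymes.

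**Figure D1:**
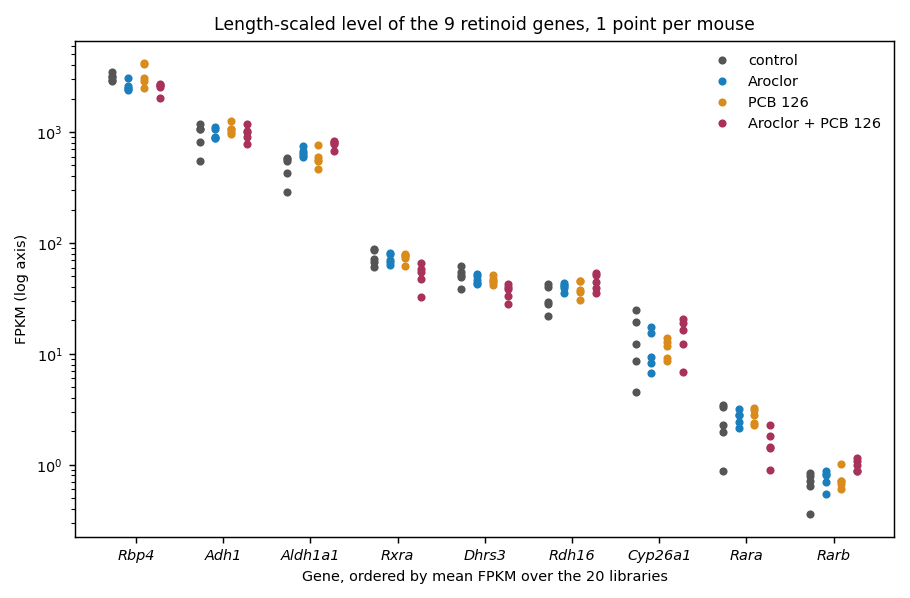
Level of each gene per kilobase of exon (FPKM, log axis), 1 point for each of the 20 mice, coloured by group. Rbp4 lies above Adh1 in every mouse, Rbp4 and Rarb mark the ends of the range at means of 2892 and 0.790 FPKM, and Cyp26a1 has the widest vertical spread.

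Against HFD control, Aroclor + PCB 126 was the exposure after which retinoid genes passed the test (edgeR's quasi-likelihood test, adjusted p under 0.05 with Benjamini-Hochberg adjustment over 15522 genes). With Aroclor + PCB 126, 3 of the 9 genes were higher than in HFD control (Aldh1a1, Rdh16 and Rarb) and 2 were lower (Dhrs3 and Rxra). The share of all tested genes that passed in this comparison was 32.8%, so 5 of 9 is a count to read beside a broad shift of the transcriptome. With Aroclor alone 0 of 9 passed, where 0% of all genes did (2677 genes at an unadjusted p under 0.05, and 135 genes by DESeq2), and with PCB 126 alone 0 of 9 passed, where 0.116% of all genes did. At an unadjusted p under 0.05, 1 of the 9 genes differed with Aroclor, 0 with PCB 126 and 7 with Aroclor + PCB 126. Of all genes, 17.2%, 14.7% and 42.4% did in these comparisons. DESeq2 called 0, 0 and 6 of the 9 genes, and 320 of all genes with PCB 126. Over the alternative fits, DESeq2 among them, 1449 to 5620 of all genes passed with Aroclor + PCB 126. After GC correction, 1 of the 9 genes (Rarb) passed with Aroclor + PCB 126, where 9.34% of all genes did. Which gene passed depended on the form of the correction: with gene length added it was Rbp4, and with a replicate block added it was Dhrs3.

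**Figure D2:**
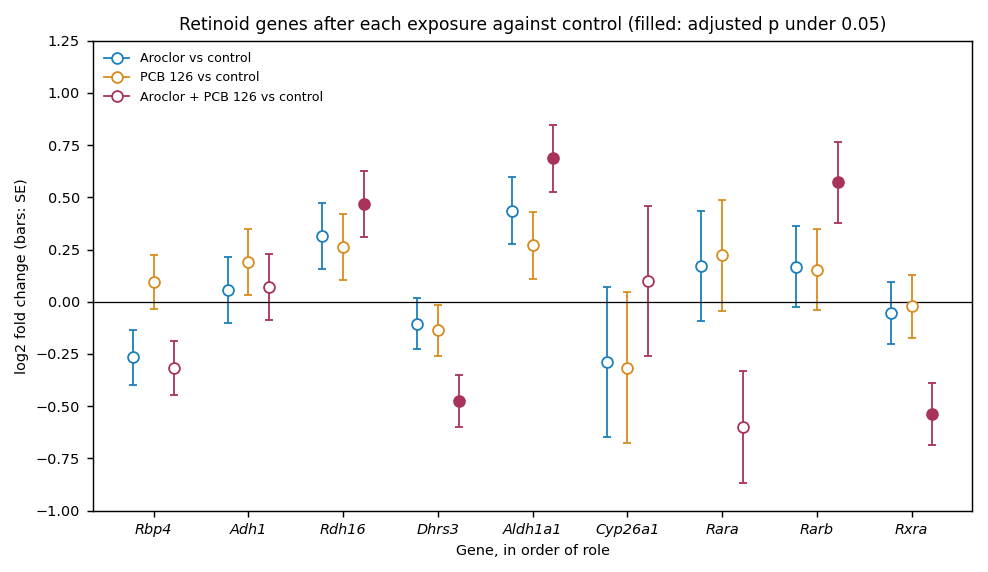
Log2 fold change against HFD control with its SE for the 9 genes, in order of role from carrier to receptors, after each of the 3 exposures; filled points passed the test. The 5 filled points all belong to Aroclor + PCB 126, 3 above and 2 below 0.

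Rbp4 (ENSMUSG00000024990, chr19:38116629-38125281 on the minus strand) encodes the serum carrier that hepatocytes load with retinol. Control mice had 4212, 3952, 4667, 3855 and 4294 CPM, and mice given both PCBs had 3566, 3646, 3540.5, 2713 and 3385 CPM. Each Aroclor + PCB 126 mouse was thus below each control mouse, yet the mean log2 fold change of −0.32 ± 0.13 (SE) did not pass the test (adjusted p = 0.0682). Across all genes 18.8% had groups that did not overlap in this comparison, and among the 9 retinoid genes 3 did (Rbp4, Aldh1a1 and Rarb). In the single exposures Rbp4 was at 3457, 4128, 3358, 3229.8 and 3263 CPM with Aroclor and at 3357, 3842, 5595, 5456 and 4149 CPM with PCB 126. The PCB 126 group was the most spread of the 4 and held both the highest Rbp4 value of the study and values within the Aroclor range. Against PCB 126 alone, Rbp4 was lower with Aroclor + PCB 126, by a log2 fold change of −0.41 ± 0.13 (adjusted p = 0.0381). This call is lost when PCB 126 replicate 3 is left out (−0.32, adjusted p = 0.129), likewise without PCB 126 replicate 4 (0.119), Aroclor + PCB 126 replicate 4 (0.0932) or replicate 5 (0.0798), and after GC correction the difference was 0.05.

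The next steps are the oxidation of retinol to retinal, its reversal, and the oxidation of retinal to retinoic acid. Adh1 (ENSMUSG00000074207, chr3:138260991-138290698 on the plus strand), a cytosolic alcohol dehydrogenase that can oxidize retinol, was at 2082 ± 556 CPM (SD, n = 5) in HFD control, 2163 ± 238 with Aroclor, 2376 ± 253 with PCB 126 and 2189 ± 336 with Aroclor + PCB 126. The groups overlapped throughout, and the log2 fold change with Aroclor + PCB 126 was 0.072 ± 0.16 (adjusted p = 0.773, 95% interval −0.26 to 0.40).

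Rdh16 (ENSMUSG00000069456, chr10:127801152-127846565 on the plus strand) encodes a microsomal dehydrogenase of retinol. The 5 control livers gave 262, 247, 183, 136 and 176 CPM and the 5 livers exposed to both gave 274, 245, 219, 333 and 316 CPM. Means of the single exposures lay between those of these groups, with ranges of 222 to 270.4 CPM for Aroclor and 188 to 279.7 CPM for PCB 126. Control mice 1 and 2 were within the range of the mice given both, and the log2 fold change was 0.47 ± 0.16 (adjusted p = 0.0283). This call was lost in 5 of the 10 fits that leave out 1 mouse, those without control replicate 3 (0.0615), 4 (0.0638) or 5 (0.0648) and without Aroclor + PCB 126 replicate 4 (0.121) or 5 (0.0756), and after GC correction (0.17, adjusted p = 0.562). Rdh16 overlaps the pseudogene Rdh18-ps and has close relatives in the Rdh family, so its count is uncertain to the extent that reads could be shared.

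Dhrs3 (ENSMUSG00000066026, chr4:144892827-144928209 on the plus strand) works in the opposite direction and reduces retinal back to retinol; it is known as a gene that retinoic acid induces. Its CPM was 179.8, 160.3, 149, 111 and 143 in the control mice against 126, 113, 117, 81.8 and 97.7 after the combined exposure. All control mice except replicate 4 lay above all exposed mice, and the log2 fold change was −0.47 ± 0.12, or 0.72 of the control level (adjusted p = 0.00625). Dhrs3 passed in all 10 fits that leave out 1 mouse, with an adjusted p of at most 0.0232. Once the GC trend was removed the value was −0.27 (adjusted p = 0.0659). With Aroclor it was at 137, 155, 148, 128 and 124 CPM and with PCB 126 at 139, 123, 151, 131 and 133 CPM, both within the range of the control mice.

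Aldh1a1 (ENSMUSG00000053279, chr19:20492715-20643465 on the plus strand) encodes a retinal dehydrogenase, which makes retinoic acid. Mice on HFD alone had 2717, 2864, 2828, 1413 and 2126 CPM, and those given both PCBs had 4093, 3841, 3343, 3963 and 3997 CPM. No exposed mouse overlapped a control mouse, and the mean was 1.61 times that of HFD control (log2 fold change 0.69 ± 0.16, adjusted p = 0.0035), the largest change among the 9 genes. With Aroclor it was at 3693, 3043, 3337, 2936 and 3167 CPM and with PCB 126 at 3789, 2946, 2733, 2269.8 and 2678 CPM. The Aroclor mice too were all above the control mice, as for 1 of the 9 genes where 2.94% of all genes had groups that did not overlap, but the difference of 0.44 ± 0.16 did not pass the test (adjusted p = 0.215). After GC correction the difference with Aroclor was 0.25 (adjusted p = 0.498). The call with Aroclor + PCB 126 held in all 10 fits that leave out 1 mouse (adjusted p at most 0.0123) and was lost after GC correction (log2 fold change 0.30, adjusted p = 0.286). Aldh1a7, a close copy of Aldh1a1 whose reads could be shared with it, was at a log2 fold change of 0.30 ± 0.15 (adjusted p = 0.132). Annotated antisense transcripts overlap Aldh1a1 (C730002L08Rik and Gm6684) and Adh1 (Gm16559), and reads of these could not be told apart from those of the genes if strand was not used.

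Cyp26a1 (ENSMUSG00000024987, chr19:37697798-37701536 on the plus strand) encodes the P450 enzyme that hydroxylates retinoic acid for removal, and is among the genes most strongly induced by retinoic acid. It was at 38.3, 49.4, 17.1, 9.04 and 24.1 CPM in HFD control, 30.3, 34.4, 13.4, 18.7 and 16.4 with Aroclor, 25.2, 18.04, 23.1, 27.7 and 17.2 with PCB 126 and 24.5, 37.3, 13.6, 32.2 and 40.4 with Aroclor + PCB 126. It was the most variable of the 9 genes, with 5.47 times between its highest and lowest mouse, both of which were control mice. All groups overlapped, and with Aroclor + PCB 126 the log2 fold change of 0.10 ± 0.36 had a 95% interval of −0.65 to 0.85, which leaves room for a difference in either direction (adjusted p = 0.872).

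As counted, the 3 receptors did not share a direction with Aroclor + PCB 126. Rara (ENSMUSG00000037992, chr11:98927818-98974942 on the plus strand), encoding RARα, measured 14.9, 14.3, 8.66, 3.82 and 9.93 CPM in the control mice against 7.88, 6.35, 9.94, 3.89 and 6.19 CPM after the combined exposure. Control replicate 4 was the lowest control mouse by far, and with it the log2 fold change of −0.60 ± 0.27 did not pass the test (adjusted p = 0.0918). Without it the value was −0.81 (adjusted p = 0.00613), and without Aroclor + PCB 126 replicate 3 it was −0.79 (adjusted p = 0.0341), so this result depends on single mice. It also depends on the GC trend, since with all mice the GC-corrected value against HFD control was 0.067 (adjusted p = 0.888). With PCB 126 alone Rara was at 10.05, 12.3, 13.7, 10.4 and 14.2 CPM and with Aroclor alone at 10.5, 9.36, 12.3, 13.96 and 12.4 CPM. Each Aroclor + PCB 126 mouse was below each PCB 126 mouse, and that difference passed the test (−0.82 ± 0.27, adjusted p = 0.0419). In 7 of the 10 fits that leave out 1 mouse that call was lost, with the adjusted p reaching 0.105 without PCB 126 replicate 3, and with the GC trend removed it was −0.33 (adjusted p = 0.345).

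Rarb (ENSMUSG00000017491, chr14:16430839-16819156 on the minus strand) encodes RARβ, a receptor whose own gene is a known target of retinoic acid, and the window printed above holds its DR5 repeat. The control livers had 3.74, 4.14, 4.42, 3.38 and 1.89 CPM, whereas those exposed to both PCBs had 5.68, 4.64, 5.21, 4.62 and 6.05 CPM. The exposed mice were all above the control mice, by a narrow margin, and the mean was 1.49 times that of HFD control (log2 fold change 0.57 ± 0.19, adjusted p = 0.0288). It was at 4.59, 4.38, 2.86, 4.29 and 3.69 CPM with Aroclor and at 5.40, 3.19, 3.51, 3.78 and 3.73 CPM with PCB 126, where the groups overlapped with HFD control. Under GC correction Rarb was at 0.61 ± 0.19 (adjusted p = 0.0499). With gene length added to the correction the adjusted p was 0.0578, with a replicate block added 0.0536, and with only the groups compared in the fit 0.0644, so these 3 fits did not call it. The call as counted was lost without control replicate 5 (0.42, adjusted p = 0.0642), Aroclor + PCB 126 replicate 1 (0.0562) or replicate 5 (0.0754). Of the 5265 exonic bases of Rarb, 1793 are also exonic in Top2b on the opposite strand. The libraries were prepared with a stranded kit, but whether counting used strand is not given in the sources used here, so reads of the genes cannot be told apart with certainty. Top2b was higher with Aroclor + PCB 126 as well (log2 fold change 0.66 ± 0.15, adjusted p = 0.0032), and its part in the Rarb result was not tested.

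Rxra (ENSMUSG00000015846, chr2:27676440-27762957 on the plus strand) encodes RXRα, the main partner of nuclear receptors in hepatocytes, RARs included. Its CPM in the control mice was 367, 394, 485, 332 and 471, and in the mice given both PCBs 359, 321, 297, 178 and 257. The groups overlapped in 1 mouse each, Aroclor + PCB 126 replicate 1 lying above control replicate 4, and the mean was 0.69 of the control level (log2 fold change −0.54 ± 0.15, adjusted p = 0.00976). With Aroclor it was at 383, 348, 365, 446 and 432 CPM and with PCB 126 at 338, 399.7, 429, 436 and 415 CPM, within the range of HFD control. The call held in all 10 fits that leave out 1 mouse (adjusted p at most 0.0292), whereas with the GC trend removed Rxra was at 0.0068 ± 0.12 (adjusted p = 0.985).

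**Figure D3:**
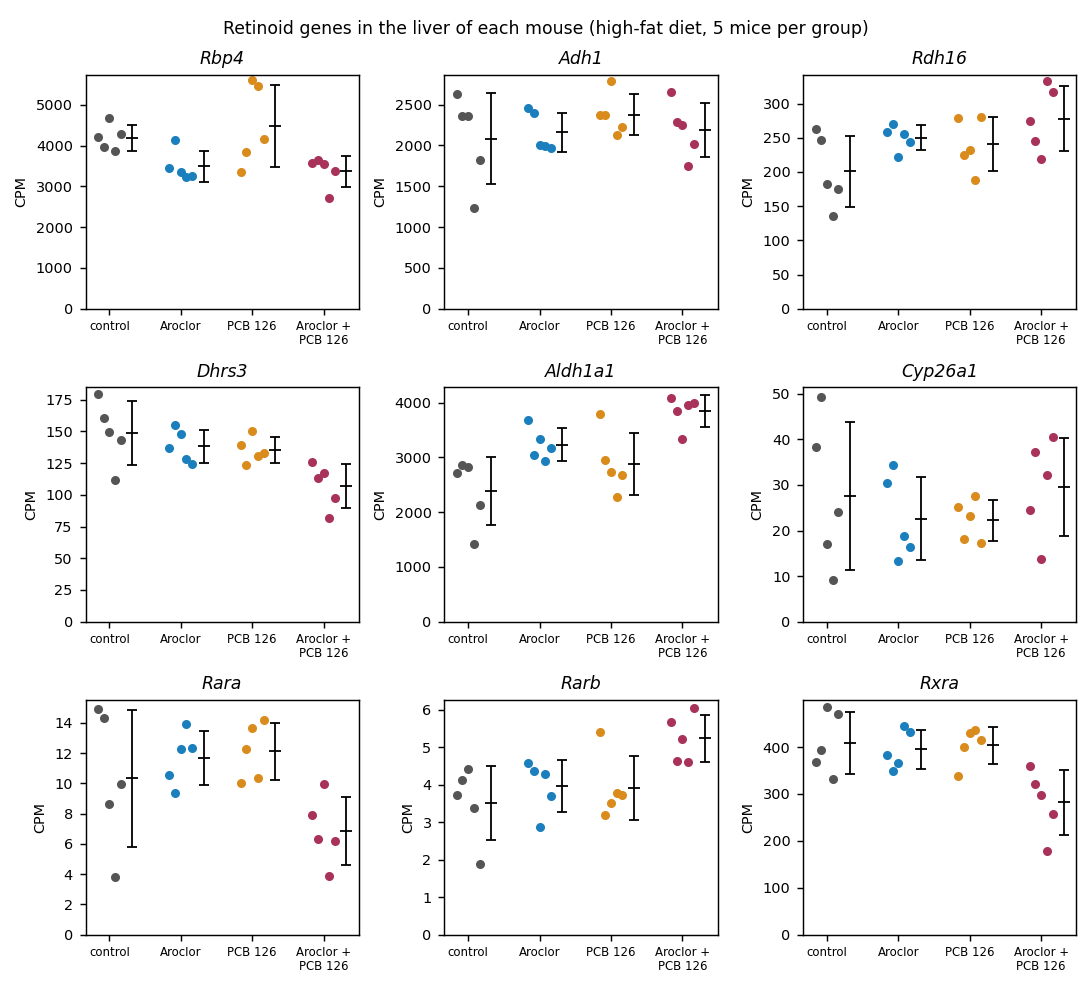
CPM of each gene in the 5 mice of each group, with replicates 1 to 5 from left to right; the bar beside the points gives the mean and SD of the group, and each axis starts at 0. The Aroclor + PCB 126 mice lie above all control mice for Aldh1a1 and Rarb and below all of them for Rbp4, and control replicate 4 is the lowest control mouse for 8 of the 9 genes.

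Single mice carried several of these spreads. Control replicate 4 had the lowest value of its group for 8 of the 9 genes, those that were higher and those that were lower with exposure, and Aroclor + PCB 126 replicate 4 for 6 of them. With both left out, a choice made after seeing the data, 4 of the 9 genes passed against HFD control. With all mice in the fit, 32.8% of all genes passed. Over the alternative fits, the one without both mice among them, 1449 to 5620 of all genes did. The 4 genes are given here with log2 fold change and adjusted p. They were Aldh1a1 (0.52, adjusted p = 0.00843), Dhrs3 (−0.50, 0.0024), Rara (−0.68, 0.0114) and Rxra (−0.49, 0.00726). Rdh16 (0.27, 0.184) and Rarb (0.58, 0.0517) were no longer called. Aldh1a1, Dhrs3 and Rxra were called with and without these mice. With all mice, each of the 3 lost the call after GC correction (adjusted p = 0.286, 0.0659 and 0.985).

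Fold changes as counted went with the GC content of the members at both ends of its range, but not in strict order. Cyp26a1 (0.10), Rarb (0.57, above Rdh16 at 0.47) and Dhrs3 (−0.47, below Rbp4 at −0.32) were out of order. The transcripts of Aldh1a1 and Rdh16, both higher with Aroclor + PCB 126, have GC contents of 44.1% and 46.0%, the lowest of the 9. Those of Rbp4 (57.4%), Rxra (57.9%) and Rara (59.3%), each with a negative fold change, have the highest. The trend over all genes, evaluated at the GC content of each gene, amounted to a log2 fold change of 0.39 for Aldh1a1 and 0.30 for Rdh16. It was −0.53 for Rbp4, −0.60 for Cyp26a1, −0.54 for Rxra and −0.67 for Rara. For Rxra and Rara this trend is about as large as the difference as counted. After its removal Rbp4 was at 0.22 ± 0.11, so that its sign turned, and Cyp26a1 was at 0.70 ± 0.37 (adjusted p = 0.255). Adh1 (51.0%), Rarb (51.1%) and Dhrs3 (53.3%) lie nearer the middle, and the trend was −0.032, −0.044 and −0.20 for them. A difference in library chemistry and a difference between the livers that runs along GC content cannot be told apart in these data, because slope and exposure group move together.

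**Figure D4:**
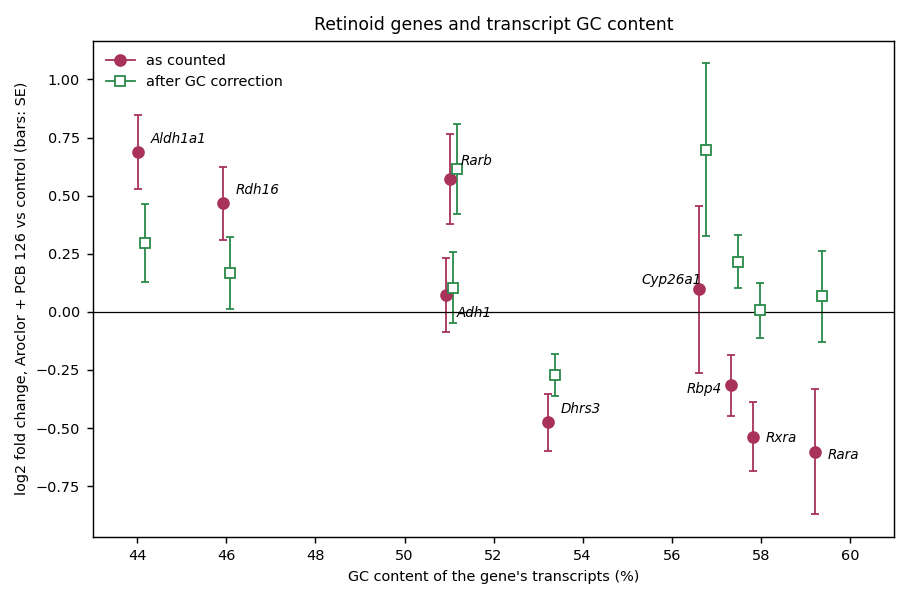
Log2 fold change of Aroclor + PCB 126 against HFD control (vertical axis, with SE) over the GC content of each gene's transcripts (horizontal axis, percent), as counted and after GC correction. As counted, Aldh1a1 at 44.1% was at 0.69 and Rara at 59.3% at −0.60, with Cyp26a1, Rarb and Dhrs3 out of order between them. After correction Rarb at 51.1% alone passed the test.

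Aroclor and PCB 126 were compared with each other at their own doses, 20 mg/kg of a mixture against 20 µg/kg of 1 congener, so the comparison is between treatments and not between equal amounts of compound. Of the 9 genes 0 passed, where 0.0258% of all genes did. Rbp4 differed most, by 0.36 ± 0.13 toward PCB 126 (95% interval 0.09 to 0.63, adjusted p = 0.398). For the other 8 genes the difference was between −0.17 (Aldh1a1) and 0.14 (Adh1). Their 95% intervals all included 0, and the widest, that of Cyp26a1, ran from −0.78 to 0.73.

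Against PCB 126 alone, 3 of the 9 genes were lower with Aroclor + PCB 126 (Rbp4, Rara and Rxra) and 0 were higher, where 16.7% of all genes passed. Rxra was at −0.51 ± 0.15 (adjusted p = 0.0281), and its call was lost without PCB 126 replicate 3 (0.0779), PCB 126 replicate 4 (0.0748) or Aroclor + PCB 126 replicate 5 (0.0741). Without PCB 126 replicate 3, 0 of the 9 genes passed in this comparison, and after GC correction 0 did. The groups did not overlap for 1 of the 9 genes (Rara), where 9.9% of all genes had groups that did not overlap. Against Aroclor alone 0 of the 9 genes passed, where 0.412% of all genes did. The lowest adjusted p was that of Rxra (−0.48 ± 0.15, 0.0882), which was at −0.11 (0.786) after GC correction. DESeq2 called 3 of the 9 genes there, and 1343 of all genes. These comparisons share the Aroclor + PCB 126 mice with the comparison against HFD control and are not independent of it.

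Whether the combined exposure differed from the sum of the single ones was tested by the interaction on the log2 scale, in which 0 of the 9 genes and 0% of all genes passed (1846 genes at an unadjusted p under 0.05, and 1 gene by DESeq2). By unadjusted p, 2 of the 9 genes were under 0.05 as counted. After GC correction 1 of the 9 was (Rara), beside 1689 of all genes. Rara was at −0.99 ± 0.38 (95% interval −1.78 to −0.21, adjusted p = 0.338), with means above HFD control after each single exposure and below it after both. GC correction left Rara at −0.76 (adjusted p = 0.307). Rxra was at −0.46 ± 0.21 (95% interval −0.90 to −0.021, adjusted p = 0.408), and at −0.18 (adjusted p = 0.767) after GC correction. For Aldh1a1, whose values with Aroclor, PCB 126 and both were 0.44, 0.27 and 0.69, the interaction was −0.021 ± 0.23, with a 95% interval of −0.49 to 0.45 around the sum of the single values.

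A further 54 genes of retinoid handling were followed by role, of which 49 were tested. With Aroclor + PCB 126, 15 of them passed against HFD control (30.6%, 5 higher and 10 lower), a share near the 32.8% of all genes. With Aroclor alone and with PCB 126 alone 0 passed. Against PCB 126 alone 8 did (16.3%, 1 higher and 7 lower), where 16.7% of all genes did. After GC correction 6 of the 49 passed against HFD control, where 9.34% of all genes did. Among the 6 were the oxidoreductases Adh7 (−0.63, adjusted p = 0.043) and Rdh11 (−0.38, 0.0328), which had not passed as counted. Among the 6 tested genes of transport and binding, 4 were lower and 0 higher with Aroclor + PCB 126. Ttr, encoding transthyretin, which holds the RBP4 protein with its retinol in the blood, was at 6561 ± 1683 CPM (SD, n = 5) in HFD control and 4037 ± 1015 CPM with Aroclor + PCB 126 (log2 fold change −0.70 ± 0.18, adjusted p = 0.00552). Stra6l, encoding a receptor of RBP4 in the liver, was at 135 ± 12.8 and 98.8 ± 8.98 CPM (−0.46 ± 0.10, 0.002). Fabp5, encoding a fatty acid-binding protein that can also carry retinoic acid, was at 13.5 ± 9.62 and 4.80 ± 1.51 CPM (−1.49 ± 0.37, 0.00549), and control replicate 4 at 30.3 CPM raised its control mean: without it the log2 fold change was −0.96 (adjusted p = 0.0171). Ttr, Stra6l and Fabp5 also passed after GC correction (−0.96, −0.56 and −1.62). The carrier Rbp4 and its blood and liver partners therefore all had lower means with Aroclor + PCB 126 as counted, and the corrected value of Rbp4 is the one with the opposite sign.

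Among the 10 genes of retinyl ester storage and hydrolysis, 2 were higher and 2 lower. Ces1d, a carboxylesterase that can hydrolyse retinyl esters and has close copies in the Ces1 cluster, which makes its count uncertain, was at 868 ± 324 CPM in HFD control, 1271 ± 411 with Aroclor, 1492 ± 290.4 with PCB 126 and 2100.3 ± 258 with Aroclor + PCB 126. Its log2 fold change with Aroclor + PCB 126 was 1.27 ± 0.25 (adjusted p = 0.00134), and the GC-corrected value was 1.13 (adjusted p = 0.00959). Lrat, the enzyme that forms retinyl esters for storage and a marker of stellate cells, was higher (0.85 ± 0.24, adjusted p = 0.00931; 0.35, 0.399 after GC correction). Pnpla2, encoding adipose triglyceride lipase, was lower (−0.64 ± 0.15, 0.00341), as was Dgat1, an acyltransferase that can also esterify retinol (−0.33 ± 0.11, 0.0254). Both lost the call after GC correction, and Dgat1 its sign (−0.12 and 0.015).

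Among the 19 tested retinol and retinal oxidoreductases 2 were higher and 1 lower. Rdh10, the enzyme of the oxidation of retinol that is essential in the embryo, was at 0.39 ± 0.10 (adjusted p = 0.00569; 0.018 after GC correction), Rdh14 at 0.27 ± 0.091 (0.028) and Rdh16f2, a relative of Rdh16, at −0.49 ± 0.19 (0.0495). Rdh16f2 differed in sign from Rdh16 and lost its call in 8 of the 10 fits that leave out 1 mouse. Rdh14 lost its call in 6 of them, with an adjusted p of up to 0.150 without Aroclor + PCB 126 replicate 4, and after GC correction (0.21, adjusted p = 0.107). Of 6 genes of retinal oxidation 0 passed, and of 1 tested further gene of retinoic acid clearance, Cyp26b1, 0 did (0.30 ± 0.32, adjusted p = 0.524). Of 4 genes of carotenoid uptake and cleavage, Cd36, a scavenger receptor that also takes up fatty acids, was higher (1.13 ± 0.20, 0.00104) and the lipoprotein receptor Scarb1 lower (−0.46 ± 0.12, 0.00712). After GC correction these were at 0.46 (0.0896) and −0.25 (0.278). Of the 3 other retinoid receptors, Rxrb was lower (−0.80 ± 0.16, 0.00142) and so was Rarg (−0.46 ± 0.16, 0.0341), and both lost the call after GC correction (−0.094 and 0.16). The call of Rarg was also lost in 5 of the 10 fits that leave out 1 mouse (adjusted p 0.0526 to 0.110, the highest without control replicate 1), and that of Rxrb in none.

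**Figure D5:**
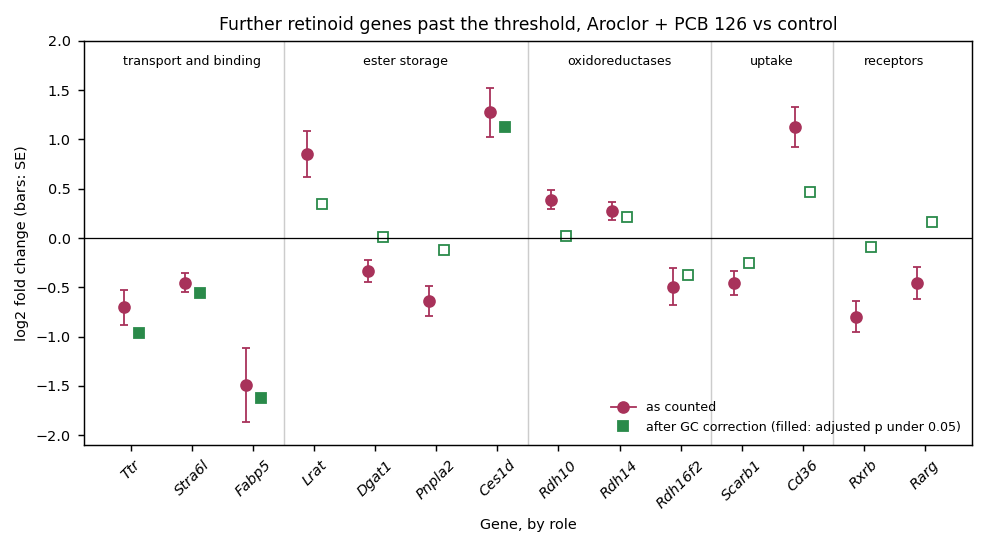
The plot shows 14 of the 15 further retinoid genes past the threshold with Aroclor + PCB 126 against HFD control, grouped by role: log2 fold change as counted with SE (circles) and after GC correction (squares, filled where the adjusted p is under 0.05). Ttr, Stra6l and Fabp5 stay below −0.5 and Ces1d above 1 after correction, and the receptors Rxrb and Rarg move to within 0.2 of 0.

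Known target genes of retinoic acid were followed as well, in a list that shares Cyp26a1, Rarb and Dhrs3 with the 9 genes. Of its 8 tested genes (10 listed) 2 were higher (Rarb and Lrat) and 2 lower, Dhrs3 among them, with Aroclor + PCB 126, where 32.8% of all genes passed. The median log2 fold change was 0.20, beside −0.00096 over all genes. After GC correction 1 was higher (Rarb) and 0 lower, with a median of 0.48 beside −0.021 over all genes, and Lrat and Dhrs3 lost their calls. The clearance enzymes Cyp26a1 and Cyp26b1 did not pass. Of 31 genes with a DR5 repeat in a promoter window, Rarb and Cyp26a1 included, 7 were tested, of which 2 were higher and 1 lower (42.9%, beside 32.8% of all genes).

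Retinyl ester stores lie in the stellate cells, and in a piece of whole liver fewer cells of a type and less RNA per cell cannot be told apart. Of 10 stellate cell markers, 5 were higher (Lrat, Reln, Pdgfra, Hgf and Dcn) and 2 lower (Des and Ecm1) with Aroclor + PCB 126, where 32.8% of all genes passed, and after GC correction 0 did. Their summed level was 258 to 452 CPM in HFD control, 374 to 548 with Aroclor, 305 to 478 with PCB 126 and 411 to 515 with Aroclor + PCB 126, and none was at 0 in any library. Of 8 hepatocyte markers 1 was higher and 2 lower, of 7 Kupffer cell markers 1 was higher, of 6 sinusoidal endothelial markers 1 was lower, and of 5 cholangiocyte and 5 blood cell markers 0 passed. The part of cell composition in the retinoid results was not tested.

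Across the 20 livers, the genes whose log2 CPM was most like that of each retinoid gene were found among 11341 tested genes with a mean of at least 1 CPM. Dhrs3 was most like Ttr (Pearson r = 0.97) and Pemt, a phosphatidylethanolamine methyltransferase (0.96). Aldh1a1 was most like Themis (0.96) and Hnmt, a histamine methyltransferase (0.95). Rxra was most like Col18a1, encoding a basement membrane collagen (0.98), and Lrp1, a lipoprotein receptor (0.98), and Rbp4 was most like Cyp2d10 (0.96) and Smim4 (0.95). For Adh1 the nearest were Bphl (0.92) and Slc25a5 (0.91), for Rdh16 Atp6v0d2 (0.90) and Ildr2 (0.89), and for Rara Inf2 (0.95) and Epha1 (0.93). Rarb, with Nr2f2, a nuclear receptor (0.88), and Slf1 (0.82), and Cyp26a1, with Slc25a21 (0.81) and Slc43a3 (0.81), had the least close neighbours. These likenesses are a description over libraries that share the GC trend. After GC correction the nearest genes of Aldh1a1 (Themis, 0.96) and Rxra (Col18a1, 0.93) were still first in rank, Ttr ranked 12 for Dhrs3 (0.88), and Smim4 ranked 2448 for Rbp4 (0.25).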

How the data were processed

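The authors deposited raw read counts per Ensembl gene for 20 libraries (21780 genes). Per the labels and methods they used a TruSeq stranded mRNA kit, STAR 2.6 alignment to GRCm38.p6 and HTSeq 0.10.0; how strand was handled in counting, and with which annotation, is not given in the sources used here. Columns were matched to mice by sample title. The column of PCB 126 replicate 2 carries the number 3 in its own name, as that of replicate 3 does; the replicate number in the title was followed, also for the replicate block. Here, the 15522 genes whose counts summed to 10 or more entered 1 edgeR (version 4.0.16, R 4.3.3) fit of all 20 libraries with 4 group coefficients, after TMM scaling. Two-sided quasi-likelihood tests were adjusted by Benjamini-Hochberg over all tested genes, with a threshold of 0.05. CPM are counts scaled after TMM, and FPKM are CPM per kilobase of merged GENCODE M21 exons. For GC correction, the log2 CPM deviations of each library were smoothed over transcript GC content (spline with 6 degrees of freedom) and used as an offset. Correlations used log2 CPM with a prior count of 2. Promoters are from RefSeq (GRCm38.p6). No library pair within a group (40 pairs) was a duplicate by its counts. The tests were tested on simulated data. The genes named are the 9 members, up to 3 genes with the largest change from each further list and the 2 nearest genes of each member; Stra6l, Dgat1, Top2b, Aldh1a7, Cyp26b1, Adh7, Rdh11 and the marker genes fall outside this rule and were chosen after their values were seen. Of the called further genes, 1 is not reported here. The members, the lists and the promoter search were chosen with earlier results of these data known. Alternatives were RLE and upper-quartile normalization, DESeq2 1.42.0, no filter, filterByExpr, an FPKM filter, only the groups compared, GC and length correction, a replicate block and each mouse left out; leaving out the mice with the lowest values in 2 groups together was added after seeing the data.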

Additional observations from a re-analysis of the deposited data

Results flagged for a closer look

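Among the 36 sets of 5 CPM values (9 genes in 4 groups), 3 held a mouse whose gap to its nearest neighbour, divided by the range of the group, was above Dixon's critical value of 0.71, and chance alone gives about 1 in 20 such sets. Rbp4 was at 4128 CPM in Aroclor replicate 2, above the other 4 mice of that group (gap over range 0.747). Rbp4 was at 2713 CPM in Aroclor + PCB 126 replicate 4, below the other 4 (0.72). Rarb was at 5.40 CPM in PCB 126 replicate 1, above the other 4 (0.734) and within the range of the mice given both PCBs.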

How the results depend on the processing

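With Aroclor + PCB 126 against HFD control, the number of genes changed was 1449 after GC correction, 1548 after GC and length correction and 1517 with a replicate block and GC correction, of which 6, 7 and 6 were further retinoid genes and 1 in each was a member. That member differed: it was Rarb with GC correction, Rbp4 with length added (higher, adjusted p = 0.0426) and Dhrs3 with the block added (−0.27, adjusted p = 0.0388). Rarb was not called in the last 2 of these fits (adjusted p = 0.0578 and 0.0536) or with only the groups compared (0.0644). Against PCB 126 alone these fits called 0, 83 and 208 genes, with 0 members and 0 further genes in each. The members called there were 5 with the FPKM filter, 5 with DESeq2 and 5 with the block, beside 3 in the main fit. The further genes were 13 with DESeq2 and 13 with the block. All genes called in this comparison numbered 2589 in the main fit and 0 to 3697 over the alternative fits, so the member counts are to be read beside that range. Against Aroclor alone the count of 64 genes became 107 with RLE, 251 with upper-quartile normalization, 13 without a filter, 292 with filterByExpr, 636 with the FPKM filter, 475 with the block, 6 after GC correction, 13 after GC and length correction, 0 with only the groups compared and 1343 with DESeq2. There 1 member passed with the FPKM filter, 1 with the block and 3 with DESeq2, and the further genes were 6 with DESeq2, 2 with the block and 1 in each of 6 other fits. With PCB 126 alone, 18 genes became 9 with upper-quartile normalization, 68 with filterByExpr, 47 with the FPKM filter, 101 with the block, 51, 83 and 116 in the GC fits in the order above, 4 with only the groups compared and 320 with DESeq2 (1 further gene). With Aroclor alone, 0 became 26 with the block, 19 with the block and GC correction and 135 with DESeq2 (1 further gene). PCB 126 against Aroclor gave 2 genes with only the groups compared and 64 with DESeq2, and the interaction gave 38 with the block, 38 with block and GC correction and 1 with DESeq2. The cause of these differences was not tested.

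The replicate numbers did not pair the mice: 12 of 30 pairs with the same number had a correlation of deviations above 0.1, and 7 were the best match (range −0.31 to 0.55).

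The sign turned in the GC, GC and length, and block with GC fits for Rbp4 with Aroclor + PCB 126 (0.22, 0.33 and 0.22), Rara (0.067, 0.038 and 0.095), Dgat1 (0.015, 0.028 and 0.018) and Rarg (0.16, 0.14 and 0.17), for Rxra without the length term (0.0068 and 0.0065), for Rxra with Aroclor (0.11, 0.081 and 0.11) and PCB 126 (0.074, 0.064 and 0.074), and for Rbp4 against PCB 126 alone (0.050, 0.14 and 0.052). With both low libraries left out, Adh1 was at −0.014 and Cyp26a1 at −0.17. Of the other values of single genes, 534 kept direction and side of the threshold, 56 lost the call and 8 gained it. Rarb could not be tested with the FPKM filter, which leaves it out. With only the bases before the start site, 38.6% of promoter windows held a half-site.

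With each mouse left out, the genes changed were 0 to 2 with Aroclor, 4 to 127 with PCB 126, 3894 to 5679 with Aroclor + PCB 126, 4 to 3416 against PCB 126 alone, 0 to 1036 against Aroclor alone and 1 to 15 between the single exposures. Members called were 3 to 6 against HFD control, 0 to 5 against PCB 126 alone and 0 to 1 against Aroclor alone, and further genes 11 to 16, 0 to 14 and 0 to 4. The lowest values against PCB 126 alone came without PCB 126 replicate 3. Log2 fold changes crossed 0 for Adh1 with Aroclor (−0.085 to 0.15) and with both (−0.068 to 0.17), Cyp26a1 with Aroclor (−0.51 to 0.027), PCB 126 (−0.54 to 0.0082) and both (−0.13 to 0.40), Rara with Aroclor (−0.036 to 0.34), and Rxra with Aroclor (−0.12 to 0.014) and PCB 126 (−0.089 to 0.045). With 5 mice a group, the precision for the most variable member, Cyp26a1, is given by its 95% interval of −0.65 to 0.85 with both PCBs.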
